A study of Mus musculus with 2 samples.

Results

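The miR-30 family of microRNA (miRNA) genes was described in mouse left cerebral cortex. Its members were taken by their GENCODE M21 gene names, and all 6 (Mir30a, Mir30b, Mir30c-1, Mir30c-2, Mir30d and Mir30e) were among the 2202 miRNA genes counted. Small RNA was sequenced from the cortex of male B6CASTF1/J mice, the F1 hybrid of C57BL/6J and CAST/EiJ, at 25 days of age. There was 1 group with no treatment named, and it held 2 biological replicates, each a library from a separately numbered male. No condition was compared, so the results are levels in cortex and differences between those libraries.

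MiRNAs are cut from hairpin precursors, and either arm of the hairpin can give a mature strand of about the length of a small-RNA read. Bases 2 to 8 of the mature strand, the seed, lead the pairing with target mRNAs, so strands that share a seed share many targets. The miR-30 genes are broadly expressed and lie as pairs at 3 loci, each pair on the same strand of its chromosome.

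The RefSeq table of build GRCm38.p6 held mature arms for 4 of the 6 members, Mir30a, Mir30c-1, Mir30c-2 and Mir30e, and no entry was matched for Mir30b and Mir30d. The arms below are shown so that their seeds and single bases can be compared between genes. Each runs 5′ to 3′ with the seed in capitals.
miR-30a-5p: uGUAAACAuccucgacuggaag
miR-30e-5p: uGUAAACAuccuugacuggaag
miR-30c-5p: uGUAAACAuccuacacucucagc
miR-30a-3p: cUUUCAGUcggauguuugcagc
miR-30e-3p: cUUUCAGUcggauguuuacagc
miR-30c-1-3p: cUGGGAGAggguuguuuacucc
miR-30c-2-3p: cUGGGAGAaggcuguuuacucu

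All 5p arms of these genes carried 1 seed, GUAAACA. The 3p arms carried 2 seeds, UUUCAGU in Mir30a and Mir30e and UGGGAGA in Mir30c-1 and Mir30c-2. Counted from 1 at the 5′ end, miR-30a-5p and miR-30e-5p differed by the single substitution C13U, and their 3p arms by G18A. The miR-30c-5p arm was the same in Mir30c-1 and Mir30c-2, and it shared its first 12 bases with miR-30a-5p.

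The hairpins of the miR-30c genes are printed because the sequence they share bears on how their reads could be counted. Capitals mark the longest run that each hairpin had in common with any of the other hairpins in the table, which holds 1005.
Mir30c-1 (GRCm38.p6, chr4:120769534-120769622, minus strand): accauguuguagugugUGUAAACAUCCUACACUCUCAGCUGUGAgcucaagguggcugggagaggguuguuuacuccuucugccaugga
Mir30c-2 (GRCm38.p6, chr1:23291701-23291784, plus strand): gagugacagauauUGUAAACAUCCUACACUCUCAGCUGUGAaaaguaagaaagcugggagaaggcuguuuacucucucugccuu
Mir30a (GRCm38.p6, chr1:23272269-23272339, plus strand): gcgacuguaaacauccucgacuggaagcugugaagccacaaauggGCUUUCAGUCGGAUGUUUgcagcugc
Mir30e (GRCm38.p6, chr4:120772606-120772697, minus strand): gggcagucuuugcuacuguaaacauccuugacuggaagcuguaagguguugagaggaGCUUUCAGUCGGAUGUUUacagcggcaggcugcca

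Mir30c-1 and Mir30c-2 shared a run of 28 bases that holds the whole 5p arm and the start of the loop. Mir30a and Mir30e shared at most 18 bases, of which the last 17 lie in the 3p arm. Among all stretches of 22 bases, 7 of 68 in the Mir30c-1 hairpin and 7 of 63 in the Mir30c-2 hairpin were also in another hairpin. For Mir30a and Mir30e none of 50 and none of 71 were. Across the table, 141 of 1005 hairpins (14.0%) held such a shared stretch. The libraries were made from RNA below 30 bases, per the labels. A read with several matches was not given to any gene in these files, so a read of the exact miR-30c-5p arm could reach neither miR-30c gene. The counts of these genes are therefore minimums, and arms cannot be told apart in any count. Matches outside the hairpins of the table were not searched.

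The positions that follow are mm10. On chromosome 1, plus strand, Mir30a lies at 23272269 to 23272339 and overlaps no other annotated gene, and Mir30c-2, at 23291701 to 23291784, lies within an exon of the long non-coding RNA gene Gm27028. They are 19361 bases apart. On chromosome 4, minus strand, Mir30c-1 (120769534 to 120769622) and Mir30e (120772606 to 120772697) lie 2983 bases apart. Both are within introns of Nfyc, which encodes a subunit of the transcription factor NF-Y, in all 6 of its transcripts that overlap them. On chromosome 15, minus strand, Mir30b (68337415 to 68337510) partly overlaps the non-coding gene Gm26621. Mir30d (68341208 to 68341289) lies within an exon of the long non-coding RNA gene Gm20732, 3697 bases from Mir30b.

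Own-strand counts summed to 2388379 in replicate 1 and to 4447390 in replicate 2. Of the mapped reads, 48.6% and 52.8% matched several places and went to no gene, while 31.6% and 18.2% of all reads were unmapped. Levels are in counts per 1000000 own-strand counts (CPM), and a count of 0 allows up to 3 counts, which is 1.26 and 0.675 CPM. Intervals and this floor cover counting error only and leave out variation between animals and preparations. Copies of 1 molecule cannot be recognised in these reads, so even the counting error may be understated. At least 10 counts in each library were found for 392 genes, called measured here, and all 6 members were among them. The neuronal miRNA list (11 of its 12 names in the files) summed to 89003 and 76207 CPM. Within it the Mir124a copies held at most 3.77 CPM, and the neural list of 3 Mir9 copies summed to 87.9 and 105 CPM. Muscle miRNAs summed to 13.8 and 22.3 CPM, of which Mir206 gave 13.4 and 22.3 CPM. Mir133a-1, Mir133a-2 and Mir1a-1 were at 0 in both libraries, and Mir122 of liver stood at 54.0 and 57.6 CPM. The Mir124a, Mir9, Mir133a and Mir1a genes are copies, and a read that matched several copies went to no gene. Low counts of these genes therefore do not show that their miRNAs were scarce.

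The family was abundant, and 3 of its genes supplied nearly all of its assigned counts. Reads of the exact miR-30c-5p arm are missing from these counts, so shares within the family hold for assigned counts only. It took 46653 counts in replicate 1, or 1.95% (95% exact Clopper-Pearson interval 1.94 to 1.97%), and 115692 counts in replicate 2, or 2.60% (2.59 to 2.62%). The mean was 2.28% ± 0.458 (SD, n = 2). Mir30d, Mir30a and Mir30e together gave 97.4% of the family's counts in replicate 1 and 98.0% in replicate 2. In bulk tissue, fewer cells that express a gene and less RNA per cell cannot be told apart.

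Mir30d, on chromosome 15, was the leading member. It had 26760 counts in replicate 1 and 63678 in replicate 2, or 11204 and 14318 CPM (12761 ± 2202, SD, n = 2). It stood in place 18 of all genes in replicate 1 and in place 16 in replicate 2. It made up 57.4% of the family's counts in replicate 1 (interval 56.9 to 57.8%) and 55.0% in replicate 2 (54.8 to 55.3%). In both libraries it thus had more assigned counts than all other members together.

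Mir30a, on chromosome 1, came next. It had 12401 and 30019 counts in replicates 1 and 2, or 5192 and 6750 CPM (5971 ± 1101, SD, n = 2), at places 38 and 34. It held 26.6% and 25.9% of the family. Mir30d exceeded it 2.16-fold in replicate 1 and 2.12-fold in replicate 2, and the 2 genes' ranges did not overlap.

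Mir30e, in the Nfyc intron, followed. It had 6274 and 19726 counts, or 2627 and 4435 CPM (3531 ± 1279, SD, n = 2), at places 58 and 45. Its share of the family was 13.4% in replicate 1 (13.1 to 13.8%) and 17.1% in replicate 2 (16.8 to 17.3%), and these intervals did not overlap.

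**Figure D1:**
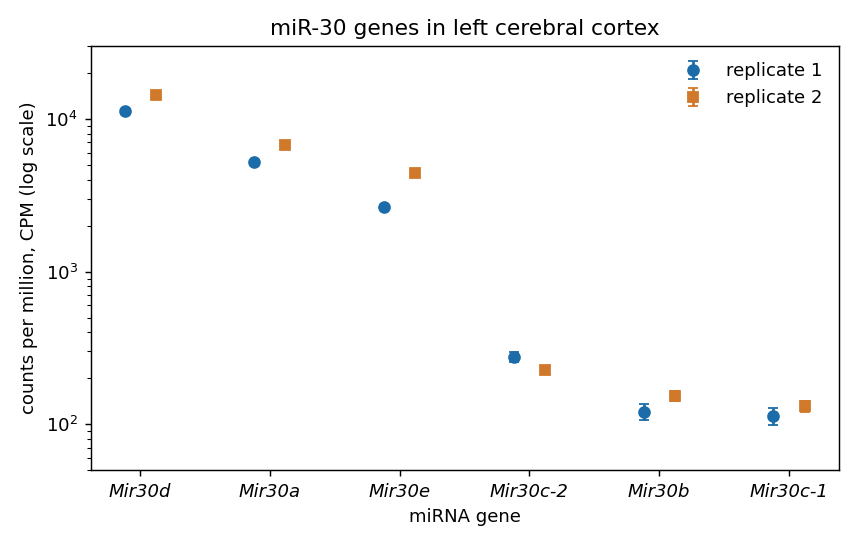
Level of each miR-30 gene in CPM (log axis) in replicate 1 (circles) and replicate 2 (squares), with 95% exact counting intervals, many smaller than the symbol. Mir30d, Mir30a and Mir30e lie at 2627 CPM or more in both libraries, and the other members at 277 CPM or less.

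The remaining genes stood far lower. Mir30e exceeded Mir30c-2, the next in order, 9.48-fold in replicate 1 and 19.6-fold in replicate 2. Mir30c-2 had 662 and 1005 counts, or 277 and 226 CPM (252 ± 36.2, SD, n = 2). Mir30b had 287 and 679 counts, or 120 and 153 CPM (136 ± 23.0, SD, n = 2). Mir30c-1 had 269 and 585 counts, or 113 and 132 CPM (122 ± 13.4, SD, n = 2). They occupied places 161 to 195 in replicate 1 and 174 to 194 in replicate 2. Mir30c-2 was above both others in each library, whereas the ranges of Mir30b and Mir30c-1 overlapped. Counts were not divided by length, because the hairpins are short (71 to 96 bases). Per base of hairpin the order was the same except that Mir30b and Mir30c-1, at 1.25 and 1.27 CPM per base in replicate 1, changed places there. The summed level of these 3 genes was 510.0 and 510.2 CPM in replicates 1 and 2, while that of the 3 abundant ones was 19023 and 25503 CPM.

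The pairs were uneven at all 3 loci. Mir30d exceeded Mir30b 93.2-fold in replicate 1 (95% exact interval 83.0 to 105) and 93.8-fold in replicate 2 (86.9 to 101). Mir30a exceeded Mir30c-2 18.7-fold (17.3 to 20.3) and 29.9-fold (28.0 to 31.8). Mir30e exceeded Mir30c-1 23.3-fold (20.6 to 26.4) and 33.7-fold (31.1 to 36.7). The intervals overlapped between libraries for Mir30d and Mir30b alone. In both of the other pairs the lower gene is a miR-30c copy, whose shared 28-base run is printed above. Shared stretches of Mir30b and Mir30d could not be searched, as no sequence entry was matched for them. The part of unassigned reads in the ratios of all 3 loci was not tested.

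**Figure D2:**
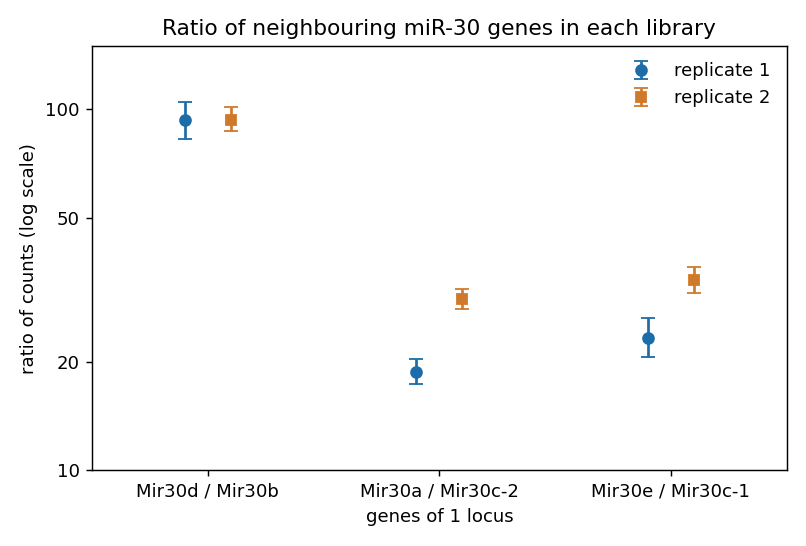
Ratio of the counts of the 2 genes of each miR-30 locus (log axis) in replicate 1 (circles) and replicate 2 (squares), with 95% exact counting intervals. The Mir30d to Mir30b ratio is 93.2 and 93.8, while the other ratios are higher in replicate 2.

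A ratio within a library needs no scaling, so its change between libraries is free of the totals. Between replicate 1 and replicate 2 the log2 ratio of Mir30d to Mir30b differed by 0.0084 with a counting SE of 0.10. For Mir30a to Mir30c-2 it was higher by 0.67 ± 0.074 (counting SE) in replicate 2, and for Mir30e to Mir30c-1 by 0.53 ± 0.11. The same absolute difference was taken for 113 other pairs of neighbouring measured miRNA genes on 1 strand within 50 kb. Its median was 0.55, with quartiles of 0.30 and 0.88. A larger difference was found in 98.2% of those pairs than in the Mir30b pair, in 39.8% than in the Mir30a pair and in 51.3% than in the Mir30e pair. Hence 2 of the 3 loci lay in the middle of the range of neighbouring genes, and the chromosome 15 locus near its lower end. Many of the other pairs share a gene with the next pair, and long runs such as Mir379 to Mir3072 supply many of them. With pairs that are not independent, counting SEs this unequal, and low counts in many other pairs, these positions are a description.

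**Figure D3:**
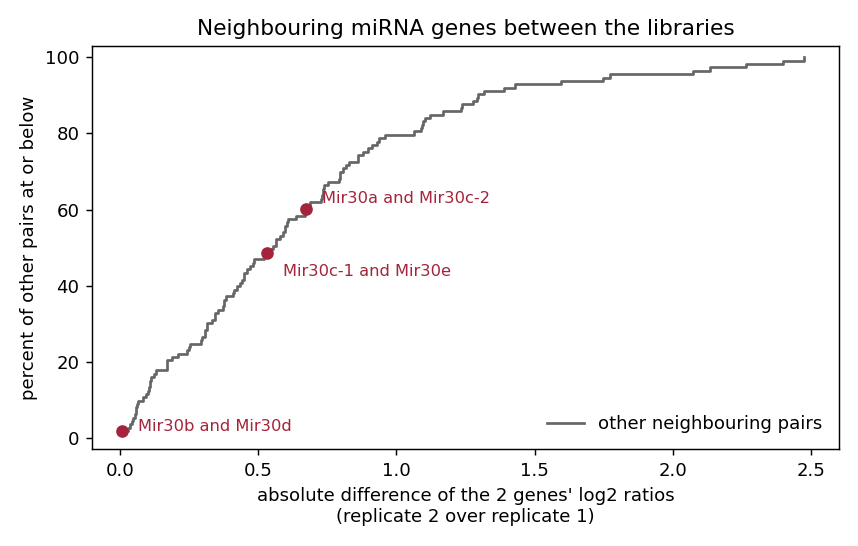
Cumulative percent (y axis) of 113 other neighbouring miRNA gene pairs by the absolute difference of the 2 genes' log2 ratios between the libraries (x axis), with the miR-30 pairs as points. The Mir30b and Mir30d pair lies at 0.0084, below the median of 0.55, and the other miR-30 pairs lie at 0.53 and 0.67.

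Between the libraries, 4 members were higher in replicate 2, 1 was lower and 1 did not pass the test. Each gene's counts were set against the library totals in an exact binomial test conditional on the gene's summed count. The test was two-sided, with Benjamini-Hochberg adjustment over 392 genes. It compares these libraries, not conditions, and covers counting error only. Of all measured genes 223 (56.9%) passed, 134 (34.2%) higher and 89 (22.7%) lower in replicate 2, so 5 of 6 members stood against a background in which most genes passed. That split was 107 higher and 119 lower when scaled by all mapped reads, and 98 and 133 when the total left out the 10 most abundant genes. Under both, 3 members were higher and 1 lower, Mir30b no longer passing. Passing this test depends on depth. At a count minimum of 100, which all members exceed, 194 of 242 genes and 6 of 6 members passed.

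Mir30e differed most among the members, being 1.69-fold higher in replicate 2 (log2 ratio 0.76 ± 0.021, counting SE; exact test, adjusted p = 4.03e-309). Mir30a was 1.30-fold higher (0.38 ± 0.015; exact test, adjusted p = 6.73e-137) and Mir30d 1.28-fold higher (0.35 ± 0.011; exact test, adjusted p = 5.03e-255). Mir30b, the partner of Mir30d, was 1.27-fold higher (0.35 ± 0.10; exact test, adjusted p = 0.00136). The ratios of Mir30a, Mir30d and Mir30b thus lay close together, between 0.35 and 0.38 on the log2 scale.

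The miR-30c copies went apart. Mir30c-2 fell by 0.29 on the log2 scale (counting SE 0.072; exact test, adjusted p = 0.000123), the only member that was lower in replicate 2. Mir30c-1 had a log2 ratio of 0.22 ± 0.11 and did not pass (exact test, adjusted p = 0.0642). In the same test it passed at a count minimum of 100 (0.0470) and with both strands summed (0.0364). Its own counts were unchanged in these settings, so only the genes adjusted for and, with strands summed, the library totals differed. With reads of the common 5p arm of both copies unassigned, the ratios of the miR-30c genes rest on the other reads of each hairpin and are uncertain.

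Apart from Mir30e, the members' absolute ratios were close to or below the median of all measured genes. The median log2 ratio of the 6 members was 0.35, beside 0.06 over all measured genes, and the median of the absolute ratio over all measured genes was 0.34. Low counts widen that background. The SD of the log2 ratio was 0.70 over all measured genes and 0.56 over the 242 with at least 100 counts in each library. Mir30e was exceeded in absolute ratio by 71 of the measured genes, Mir30a by 174 and Mir30d by 190. With a biological coefficient of variation of 0.311, estimated by edgeR from the same 2 libraries, edgeR's exact test called 3 of 392 genes (0.765%) and none of the 6 members. Their adjusted p in that exact test was 1.0 throughout. At an unadjusted p of 0.05 it called 19 genes and no member, the lowest member p being 0.243 for Mir30e. Because the dispersion came from the very libraries compared, with 1 on each side, ordinary differences set the spread they were held to. Few calls were therefore built in, and the absence of members among them says nothing about whether they differed.

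**Figure D4:**
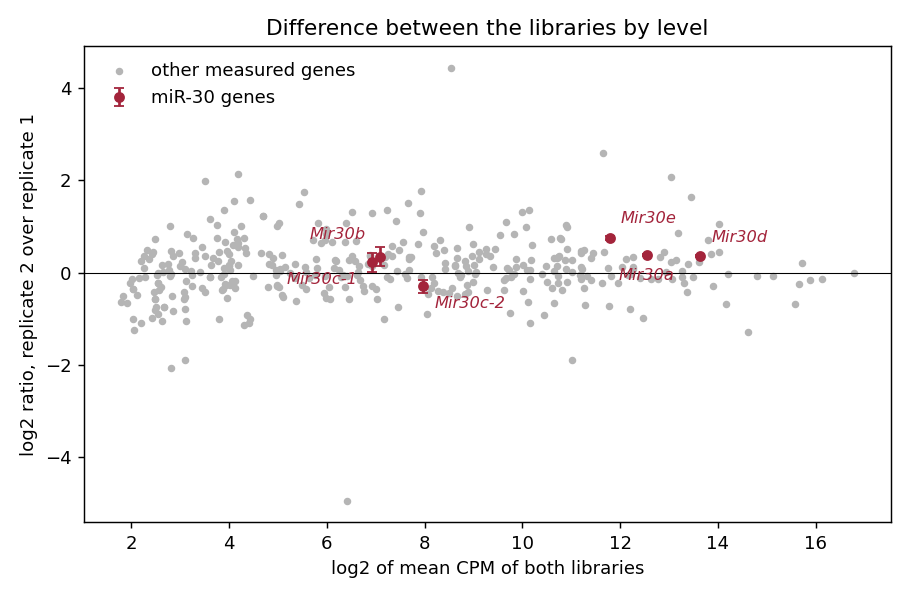
Log2 ratio of replicate 2 over replicate 1 (y axis) against log2 of the mean CPM (x axis) for 392 measured genes, with miR-30 genes as dark points whose bars are 95% counting intervals. The members lie between −0.29 and 0.76, within the cloud of other genes.

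Other measures moved with the libraries too. In replicate 2 against replicate 1, the endothelial miRNA Mir126a had a log2 ratio of 1.06 and Mir204 of the choroid plexus 0.50. The marker lists were split. The summed neuronal list stood at −0.22 because of Mir132 (−0.68): 5 of its 8 measured genes were higher in replicate 2, and without Mir132 the sum stood at 0.43. The summed oligodendrocyte list stood at 0.38 through Mir219a-2 (0.72), and at −0.04 without it, as its other 2 genes had lower values in replicate 2. The smooth muscle and pericyte list, Mir143 and Mir145a, stood at −0.12. Sums without the most abundant gene were added after the values were seen. Unmapped and multiply matching shares differed as given above. The part of these in the members' differences was not tested.

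Reads on the opposite strand were not seen for any member. All 6 had 0 opposite-strand counts in both libraries, which allows up to 0.00643% of the family's counts in replicate 1 and 0.00259% in replicate 2. Such counts occurred for 25 of 392 measured genes. Mir30e is a special case, because the annotation places Mir30f on the same bases of chromosome 4 (120772606 to 120772697) on the plus strand. Mir30f had 0 own-strand counts in both libraries, and its opposite-strand counts, 6274 and 19726, equal the own-strand counts of Mir30e. In the column for both strands the 2 genes were listed at 0, and Mir30e was 1 of 23 measured genes for which that was so. Its annotated mature strand is shown because it resembles the family yet is read from the other strand, with bases 2 to 8 in capitals.
miR-30f: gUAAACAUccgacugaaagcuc
Its first 10 bases equal bases 2 to 11 of miR-30a-5p, which shifts its bases 2 to 8 to UAAACAU, so it does not carry the GUAAACA seed.

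Among all other genes of the table, only Mir384 had a mature arm of the same side with a member's seed. It lies on chromosome X (105344282 to 105344369, minus strand), and its 5p arm is printed to show the shared seed.
miR-384-5p: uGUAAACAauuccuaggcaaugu
Beyond the first 8 bases it had 10 substitutions against miR-30a-5p over 22 bases. Mir384 had 480 and 927 counts, or 201 and 208 CPM (205 ± 5.28, SD, n = 2), a level between those of Mir30c-2 and Mir30b in means. Its log2 ratio between the libraries was 0.05 ± 0.081 (counting SE; exact test, adjusted p = 0.636). Adding it raised the share of own-strand counts from 2.28% to 2.30%.

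The miR-30 share was set beside those of 3 other families spread over several loci, which do not include more abundant ones such as let-7. The miR-29 family held 0.742% and 1.35% in replicates 1 and 2, miR-26 0.457% and 0.555%, and miR-181 0.878% and 0.885%. Numbered copies (genes such as Mir30c-1 and Mir30c-2) gave 2.00% and 1.37% of the miR-30 counts. They gave 2.04% and 1.13% of miR-29, 5.27% and 1.01% of miR-26, and 44.7% and 40.7% of miR-181. The summed share of miR-30 was 1.33-fold higher in replicate 2, against 1.82-fold for miR-29, 1.22-fold for miR-26 and 1.01-fold for miR-181. Reads that matched several places went to no gene, so they are missing from the family counts and from the totals. Each family's counts are minimums, by an unknown amount that can differ between families. Its share can therefore be too low or too high. Differences between families were not tested.

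For each member the most similar gene outside the family was taken by the Euclidean distance of log2 CPM over both libraries, a likeness of level that rests on only these 2 libraries. Mir99a was nearest to Mir30d (distance 0.0993), at 11506 and 13437 CPM. Mir143, a smooth-muscle miRNA, was nearest to Mir30a (0.386), at 5660 and 5238 CPM. Unlike Mir30a, it was lower in replicate 2. The neuronal Mir128-2 was nearest to Mir30e (0.249), at 2779 and 3767 CPM. The nearest to Mir30b was Mir7080 (0.149), to Mir30c-1 Mir130b (0.0637), and to Mir30c-2 Mir467e (0.149).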

How the data were processed

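MicroRNA sequencing of left cerebral cortex gave 1 library from each of 2 mice. Per the readme texts deposited with the files, the authors made counts per gene on mm10 with GENCODE M21 annotation. For the aligner and the counting tool, versions included, the sources used here name none. The deposited values are raw counts in 3 columns, read from their values as both strands together, own strand and opposite strand. The reference is C57BL/6J, and the effect of CAST/EiJ alleles was not tested. Totals and tests leave out the 4 leading entries, which are no genes.

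CPM was computed from own-strand counts (2388379 and 4447390). The members and lists were chosen with earlier results of these data known. Genes with 10 counts or more in both libraries entered an exact conditional binomial test (SciPy 1.17.1), called at an adjusted p of 0.05, since edgeR's quasi-likelihood test has no contrast with 1 group. The code was tested on simulated data. A chi-square of 176676 on 760 degrees of freedom served only to check that the files are not copies of 1 library. Separate animals are taken from the labels' numbering. Alternatives were count minimums of 1 and 100, strands together, TMM (edgeR 4.0.16) and DESeq2 1.42.0 scaling, totals of all mapped reads or without the 10 most abundant genes, and edgeR's exact test with a common dispersion. Chosen after seeing the data were CPM per hairpin base and the family with Mir384. Named genes were the members, genes within 50 kb of a member, genes with a member's seed on the same arm, and the most similar gene of each member. Sequences are from RefSeq (GRCm38.p6).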

Additional observations from a re-analysis of the deposited data

How the results depend on the processing

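The members' directions held under all alternatives in which they were tested. With edgeR's exact test, 3 of 392 genes and 0 of 6 members passed, against 223 and 5 in the binomial test; its dispersion came from the libraries it compared, so few calls were built in. Scaling by all mapped reads moved the median log2 ratio of all measured genes from 0.06 to −0.06, and the total without the 10 most abundant genes moved it to −0.12. The members' median then was 0.22 and 0.17, and Mir30b no longer passed (exact test, adjusted p = 0.0535 and 0.167). By construction of the totals, the family's mean share was 0.955% of all mapped reads and 4.61% without the 10 most abundant genes. It ranged from 1.95 to 2.60% when either library was left out. With both strands summed Mir30e had no count, so neither its test nor its ratio to Mir30c-1 could be computed. Of 47 recomputed member ratios, 38 stayed on their side of the threshold, 7 no longer passed and 2 newly passed. The test between libraries cannot be run with 1 library left out. No paired analysis was possible because the labels give 1 group. Depth limits the precision of Mir30b, Mir30c-1 and Mir30c-2, whose log2 ratios have counting SEs of 0.10, 0.11 and 0.072.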
